A study of Mus musculus with 16 samples.

Results

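Jchain, Mzb1, Cd79a, Cd79b, Derl3, Pou2af1, Ms4a1, Irf4 and Prdm1 are genes of B cells and of plasma cells that do not themselves encode an immunoglobulin chain. These 9 genes were chosen by symbol out of the 22396 gene symbols in the expression tables, and each was represented by 1 listed transcript. RNA was sequenced from EpCAM+ cells, which are mostly epithelial cells, sorted from the distal colon of 16 mice. All mice carried Tnfr2-f/f, in which an exon of Tnfr2 is flanked by loxP sites. The controls carried nothing further, and the mice labelled knockout also carried Vil1::Cre, which expresses Cre recombinase under the villin promoter in intestinal epithelial cells and leaves other cells with an intact gene. Water was given to 4 controls and 5 mice labelled knockout, and 3% dextran sulfate sodium (DSS), which injures the colonic epithelium, was given for 6 days to 3 controls and 4 mice labelled knockout. Per the labels the mice were dissected 12 days after the start of treatment. The study reports that in DSS mice the injured regions were cut away from unaffected colon and used for sorting. The study's own text gives another DSS concentration and places the uninjured mice at the start of treatment, and the labels are followed here. The mice were adults and their exact age at dissection is not given in the labels.

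B cells carry a surface antigen receptor whose signal passes through a pair of proteins encoded by Cd79a and Cd79b, and most also carry CD20, encoded by Ms4a1. After activation some become plasma cells, which lose much of the B cell program under the transcription factors encoded by Prdm1 (BLIMP1) and Irf4 and secrete antibody in bulk. In the colon most plasma cells lie in the lamina propria beneath the epithelium and make IgA, which is joined into dimers by the J chain (Jchain) and carried across the epithelium by the receptor encoded by Pigr.

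Facts of the whole series bear on these genes in several ways. Immunoglobulin genes took 1.62 to 47.4% of the summed TPM in the 9 water mice and 0.026 to 2.26% in the 7 DSS mice. TPM, the unit used here, is a length-corrected level of each transcript. Its sum over the listed transcripts was 487469 to 861109 per water mouse and 539359 to 662142 per DSS mouse. Epcam, the defining marker of the sorted cells, was at 566 to 712 TPM in the water mice and 894 to 1017 TPM in the DSS mice. Leukocyte RNA was also present: Ptprc (CD45) was at 7.65 to 29.2 TPM in the water mice and 0 to 4.88 TPM in the DSS mice. Tnfrsf1b, the gene from which Cre removes that exon, was at 11.1 to 15.5 TPM in the water controls and 9.23 to 14.8 TPM in the water mice labelled knockout, and the groups overlapped (difference -2.12 TPM, two-sided exact permutation p = 0.198). After DSS it was at 13.3 to 22.2 TPM in the controls and 13.5 to 27.0 TPM in the mice labelled knockout (difference 1.88 TPM, two-sided exact permutation p = 0.629). TPM of the whole transcript is not a measure of the deleted exon and cannot check the genotype, so the word "labelled" is kept for the knockout mice below. For this line the study itself reports less TNFR2 in EpCAM+ cells by flow cytometry and its loss by qPCR. Each treatment was quantified in a table of its own with its own scaling, and no cage held mice of both treatments. Only in DSS mice was the tissue picked for injury. Treatment, cage, table and the region taken therefore cannot be told apart. Sex was also unbalanced, since all 7 DSS mice were female and 4 of the 9 water mice were male.

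Jchain was the most abundant of the 9 genes by a wide margin. It spans chr5:88519809-88527891 on the minus strand (GRCm38), and the listed transcript has 4 exons. In the 4 water controls Jchain was at 5901, 1906, 465 and 8161 TPM, and in the 5 water mice labelled knockout at 3374, 13800, 5290, 11511 and 4923 TPM. Control replicate 3 was the lowest and labelled knockout replicate 2 the highest, a 29.7-fold range, and the genotypes overlapped. After DSS Jchain was at 66.4, 5.18 and 8.04 TPM in the controls and at 10.97, 70.5, 441 and 48.9 TPM in the mice labelled knockout. The highest DSS mouse, labelled knockout replicate 3, lay just under the lowest water mouse.

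Mzb1 encodes a chaperone of the endoplasmic reticulum that assists antibody assembly in B cells and plasma cells. It lies at chr18:35647267-35649367 on the minus strand. Mzb1 was at 134, 52.6, 8.84 and 233 TPM in the water controls and at 82.7, 353, 142, 266 and 134 TPM in the water mice labelled knockout. The same mice as for Jchain were lowest and highest. After DSS it was at 1.40, 1.81 and 0.999 TPM in the controls and at 0.534, 1.83, 14.4 and 1.40 TPM in the mice labelled knockout, so that 6 of the 7 DSS mice were below 2 TPM and labelled knockout replicate 3 exceeded the lowest water mouse.

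Pou2af1 (OCA-B) encodes a coactivator of octamer-binding transcription factors that is needed for germinal centres. It spans chr9:51213708-51240080 on the plus strand. Its level was 30.3, 15.7, 3.58 and 56.4 TPM in the water controls and 25.0, 69.1, 34.7, 78.1 and 33.6 TPM in the water mice labelled knockout. After DSS the controls were at 0.414, 0.178 and 0.49 TPM and the mice labelled knockout at 0.472, 1.80, 5.74 and 0.686 TPM. Labelled knockout replicate 3 was again the only DSS mouse above the lowest water mouse.

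The promoters of Jchain, Pou2af1 and Derl3 are shown because Jchain is the member on which the levels turn and the other two held a match to a searched motif. They are RefSeq promoter windows of GRCm38.p6, from 250 bases before to 50 bases after the start, written 5′ to 3′ along the gene. Capitals mark a motif match. The Jchain window is chr5:88527848-88528147 (minus strand), that of Pou2af1 is chr9:51213440-51213739 (plus strand) and that of Derl3 is chr10:75893148-75893447 (plus strand).
Jchain: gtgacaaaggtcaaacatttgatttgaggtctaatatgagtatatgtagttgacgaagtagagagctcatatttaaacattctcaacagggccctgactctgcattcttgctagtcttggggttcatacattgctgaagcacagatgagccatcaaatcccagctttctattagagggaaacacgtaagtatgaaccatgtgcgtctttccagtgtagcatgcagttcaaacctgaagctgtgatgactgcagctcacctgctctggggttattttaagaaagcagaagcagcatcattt
Pou2af1: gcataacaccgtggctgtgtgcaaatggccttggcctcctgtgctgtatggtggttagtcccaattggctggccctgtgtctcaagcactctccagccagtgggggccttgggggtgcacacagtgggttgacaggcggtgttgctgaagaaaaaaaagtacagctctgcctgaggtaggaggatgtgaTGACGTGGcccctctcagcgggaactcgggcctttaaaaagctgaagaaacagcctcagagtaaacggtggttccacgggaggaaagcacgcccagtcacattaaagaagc
Derl3: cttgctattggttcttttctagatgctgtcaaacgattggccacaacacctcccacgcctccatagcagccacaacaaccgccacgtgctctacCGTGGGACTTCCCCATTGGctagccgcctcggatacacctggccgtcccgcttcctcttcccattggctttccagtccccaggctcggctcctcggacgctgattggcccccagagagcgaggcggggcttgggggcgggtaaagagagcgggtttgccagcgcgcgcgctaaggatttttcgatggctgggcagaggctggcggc

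Of the 9 members, 6 had a promoter in the RefSeq set used here (Jchain, Derl3, Pou2af1, Irf4, Prdm1 and Cd79a). On both strands, an unfolded protein response element (TGACGTGG) was found in Pou2af1 alone of the 6, 61 bases before the start, and in 0.682% of all 32544 promoters of the same length. An endoplasmic reticulum stress element (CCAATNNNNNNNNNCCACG) was found in Derl3 alone of the 6, on the minus strand and 156 bases before the start, against 0.12% of all promoters. The octamer ATGCAAAT and the PRDM1 core AGTGAAAG were in none of the 6 windows and in 1.75 and 1.32% of all promoters. None of the matches overlapped another searched motif. These are letter matches in a short window and were not tied to binding.

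Cd79a and Cd79b encode the signalling pair of the B cell receptor. Cd79a spans chr7:24897381-24902197 on the plus strand and Cd79b chr11:106311341-106314762 on the minus strand. Cd79a was at 58.6, 11.5, 7.13 and 51.1 TPM in the water controls and at 31.9, 91.1, 32.4, 66.1 and 35.4 TPM in the water mice labelled knockout. After DSS it was at 0.591, 0.679 and 0.841 TPM in the controls and at 0.599, 0.685, 3.05 and 0.785 TPM in the mice labelled knockout. All 9 water mice were above all 7 DSS mice. Cd79b was at 5.38 to 17.1 TPM in 3 water controls, at 8.02 to 23.1 TPM in the 5 water mice labelled knockout, and near 0 (9.47e-07 TPM) in water control replicate 3. In 5 of the 7 DSS mice it was listed at 0.

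Ms4a1 behaved unlike the receptor pair. It was at 6.02, 0.416, 0.936 and 1.41 TPM in the water controls and at 0.718, 2.97, 1.47, 0.462 and 0 TPM in the water mice labelled knockout. Control replicate 1 was the highest for Ms4a1, although 3 water mice had more Jchain. In the 7 DSS mice Ms4a1 was between 0.188 and 0.582 TPM.

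The transcription factors of plasma cell differentiation were low. Irf4 was at 2.48 to 15.7 TPM in the water controls and at 0 to 19.8 TPM in the water mice labelled knockout, where replicate 3 was listed at 0. After DSS 6 of the 7 mice were below 0.06 TPM and labelled knockout replicate 3 was at 1.07 TPM. Prdm1 was at 9.14 TPM in water control replicate 4 and 8.60 TPM in water labelled knockout replicate 4, and between 0.0508 and 2.79 TPM in the other 7 water mice. In the DSS mice it was between 0 and 1.42 TPM. Derl3, which encodes a protein of endoplasmic reticulum degradation, did not exceed 0.391 TPM in any of the 16 mice.

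**Figure D1:**
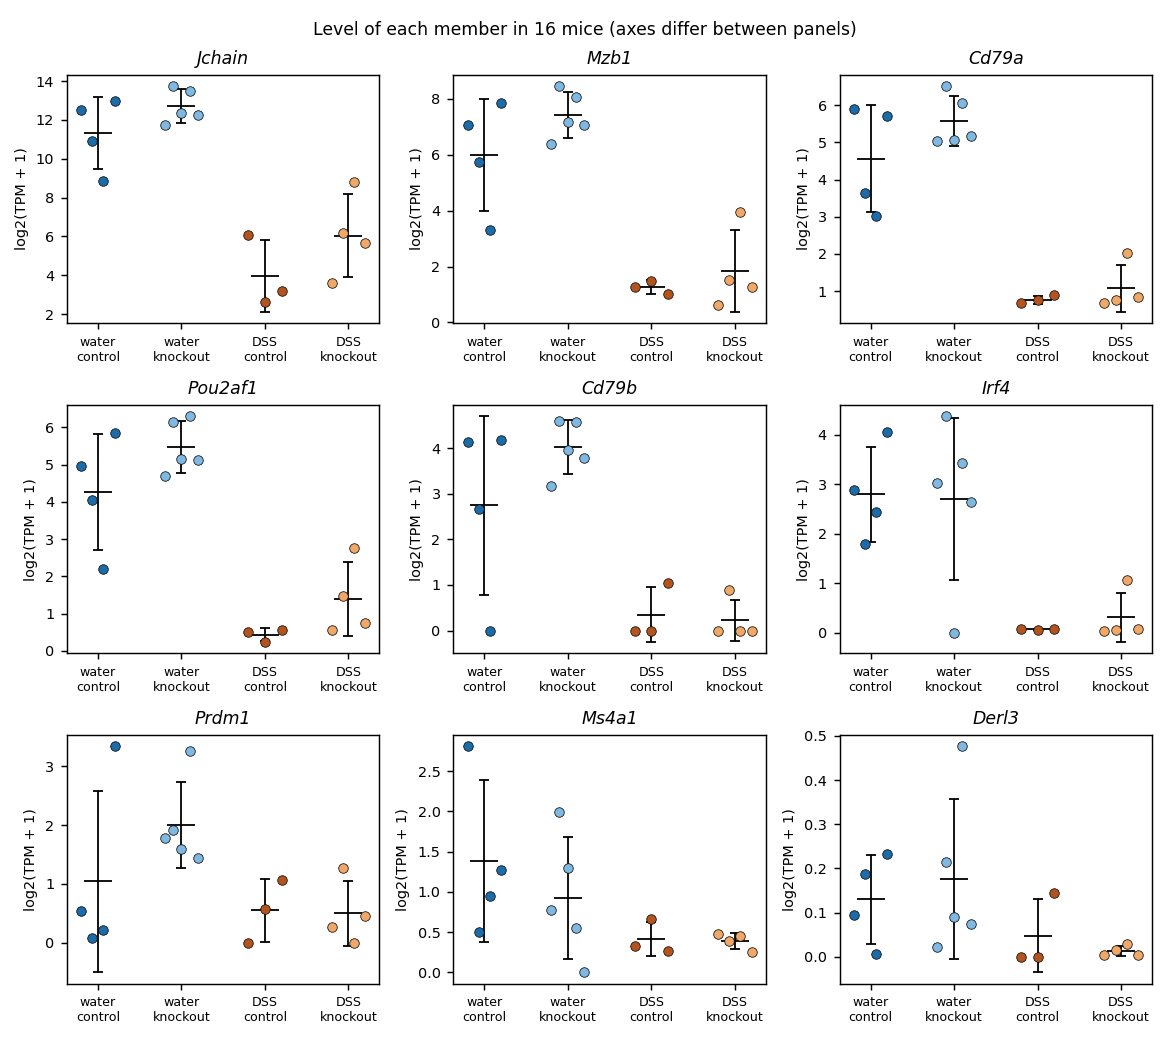
Level of each of the 9 genes in log2(TPM + 1), one point per mouse in the 4 groups, with the group mean and SD as the bar and whiskers and a vertical axis of its own in each panel. All water mice lie above all DSS mice for Jchain and Cd79a, while for Mzb1 and Pou2af1 DSS labelled knockout replicate 3 (14.4 and 5.74 TPM) lies above the lowest water mouse (8.84 and 3.58 TPM).

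The tables list only the principal transcripts of each gene, so reads given to another isoform are not seen. The share of 31-base windows of the listed transcript that occur in no other annotated transcript was 100% for Cd79a, 54.2% for Mzb1, 48.8% for Pou2af1, 45.5% for Ms4a1 and 12.8% for Jchain. It was 0.726% for Prdm1, 0.634% for Irf4, 0.155% for Derl3 and 0% for Cd79b. For these last 4 genes the listed transcript shares nearly all of its sequence with other transcripts, and how reads were divided between them was not measured here.

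The order of the levels in the water mice was Jchain, Mzb1, Cd79a, Pou2af1, Cd79b, Irf4, Prdm1, Ms4a1 and Derl3 by mean TPM. Jchain exceeded Mzb1, Mzb1 exceeded Cd79a, and Pou2af1 exceeded Cd79b in 9 of 9 water mice. Neighbours that were not separated were Cd79a and Pou2af1, with Cd79a higher in 5 of 9 mice, and Prdm1 and Ms4a1, with Prdm1 higher in 5 of 9 mice.

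The relation of the 9 genes to each other was examined over the 9 water mice on log2(TPM + 1). Jchain, Mzb1, Pou2af1, Cd79a and Cd79b followed one another closely. All 10 pairs among these 5 genes had a Pearson r above 0.9 (0.917 to 0.996), and none of the other 26 pairs did. Of all pairs of genes averaging 1 TPM or more in these mice, 0.0917% had an r above 0.9, and the median r of those pairs was 0.00. The 5 genes were grouped after their correlations were seen, so the count is a description.

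Over the 36 pairs the median r was 0.60 and the median Spearman rho was 0.75. The strongest pair was Jchain with Mzb1 (r = 0.996, exact permutation p = 1.1e-05, Benjamini-Hochberg adjusted over the 36 pairs 0.000184, n = 9; rho = 0.95, exact permutation p = 0.000353, adjusted 0.00212). Without the 2 mice farthest from the median of Jchain the r was 0.985. Jchain with Cd79b gave r = 0.979 (exact permutation p = 2.76e-06, adjusted 9.92e-05, n = 9) and rho = 1.00 (exact permutation p = 5.51e-06, adjusted 0.000198), with r = 0.951 without the 2 farthest mice. Jchain with Pou2af1 gave r = 0.991 (exact permutation p = 3.03e-05, adjusted 0.000184, n = 9) and rho = 0.933 (exact permutation p = 0.00075, adjusted 0.00337), with r = 0.953 without the 2 farthest mice. Jchain with Cd79a gave r = 0.961 (exact permutation p = 3.58e-05, adjusted 0.000184, n = 9) and rho = 0.967 (exact permutation p = 0.000165, adjusted 0.00149), with r = 0.906 without the 2 farthest mice.

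The remaining members followed Jchain less closely. Prdm1 with Jchain gave r = 0.717 (exact permutation p = 0.0245, adjusted 0.0678, n = 9) and rho = 0.767 (exact permutation p = 0.0214, adjusted 0.0428), and without the 2 farthest mice r fell to 0.50, so the relation rested in part on them. Irf4 with Jchain gave r = 0.398 (exact permutation p = 0.277, adjusted 0.387, n = 9) and rho = 0.733 (exact permutation p = 0.0311, adjusted 0.0509), with r = 0.529 without the 2 farthest mice. Without labelled knockout replicate 3, the mouse in which Irf4 was listed at 0, r was 0.739 (exact permutation p = 0.0342, unadjusted). Derl3 with Jchain gave r = 0.609 (exact permutation p = 0.0935, adjusted 0.187, n = 9) and rho = 0.783 (exact permutation p = 0.0172, adjusted 0.0428), with r = 0.80 without the 2 farthest mice, at levels that never passed 0.391 TPM.

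Ms4a1 was the member least like the others. Its median r with the other 8 was 0.21 and its highest was 0.424, with Cd79a. Ms4a1 with Jchain gave r = 0.273 (exact permutation p = 0.465, adjusted 0.553, n = 9) and rho = 0.45 (exact permutation p = 0.23, adjusted 0.276), with r = 0.234 without the 2 farthest mice. Among all 36 pairs, 11 passed an adjusted p of 0.05 by Pearson (the 10 above, and Pou2af1 with Prdm1 at r = 0.778) and 18 by Spearman, and none of the pairs of Ms4a1 passed by either.

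**Figure D2:**
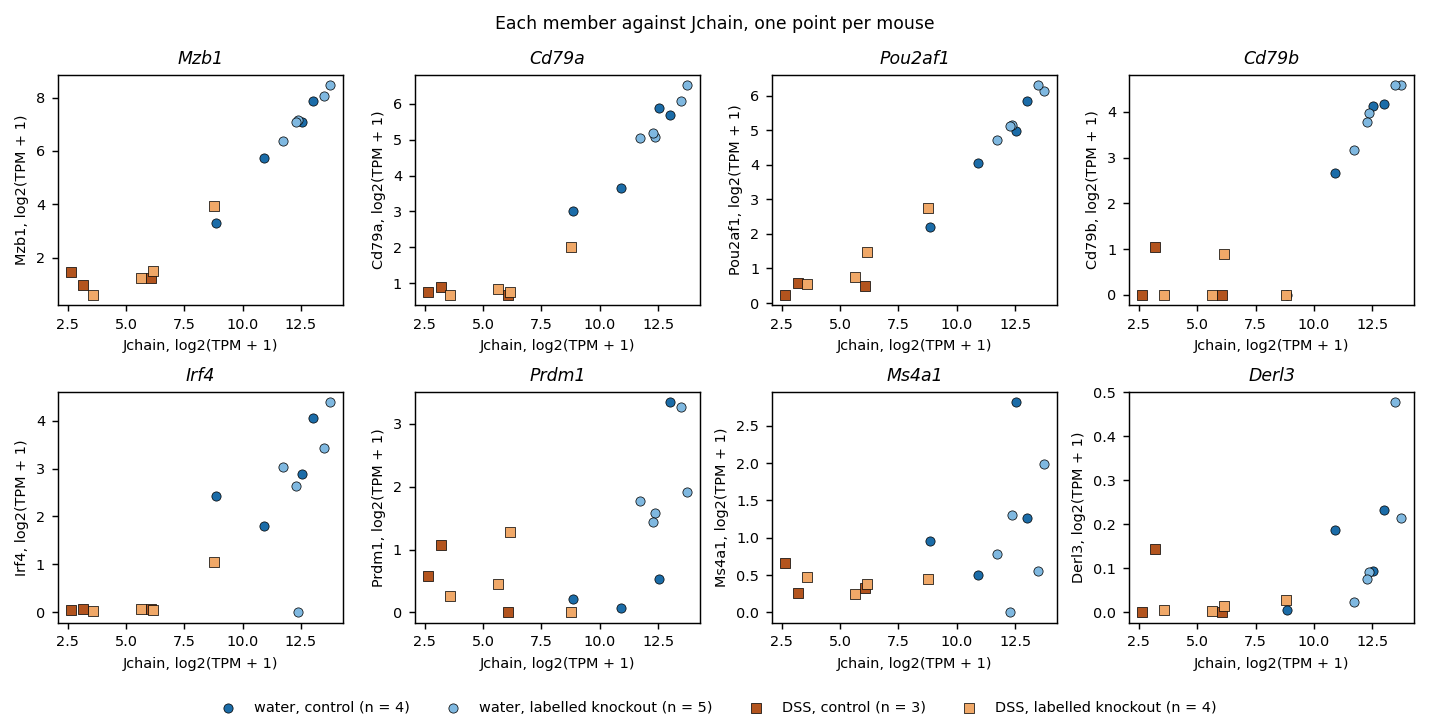
Each of 8 genes against Jchain, both in log2(TPM + 1), with one point per mouse, circles for water and squares for DSS, and genotype by shade. Mzb1, Cd79a, Pou2af1 and Cd79b rise with Jchain over the 9 water mice (r = 0.961 to 0.996), while Irf4 has a mouse at 0 and Ms4a1 has its highest value, 6.02 TPM, in a mouse with 5901 TPM of Jchain.

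**Figure D3:**
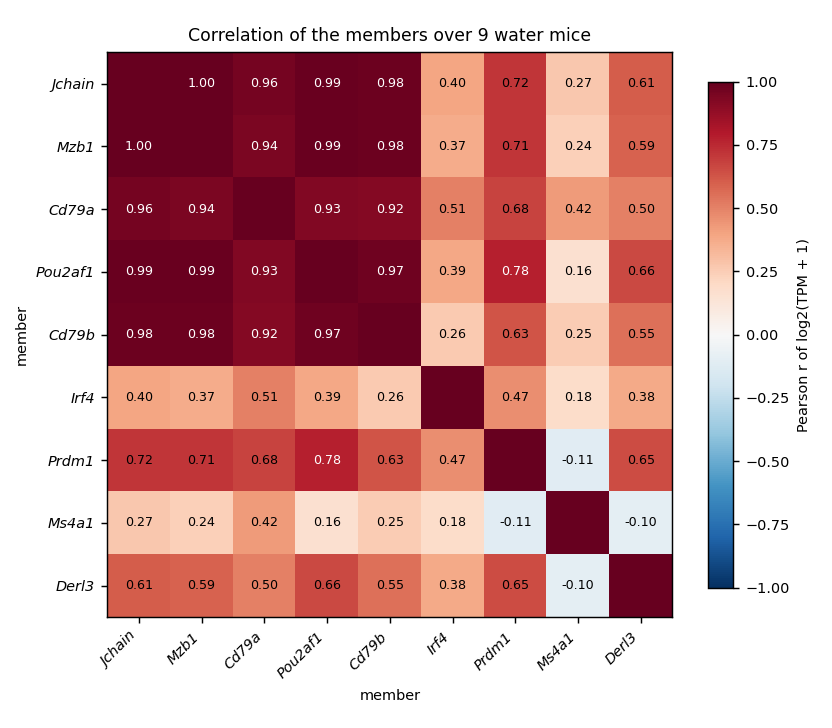
Pearson r of log2(TPM + 1) over the 9 water mice for each pair of the 9 genes, printed in each square and coloured from blue (-1) to red (1). The first 5 genes form a block at 0.917 to 0.996, and the row of Ms4a1 does not exceed 0.424.

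Ratios between the genes varied less than their levels in the water mice. The ratio of Jchain to Mzb1 was 35.1 to 52.6 in the 9 water mice, a 1.5-fold range, while Jchain itself spanned 29.7-fold and Mzb1 39.9-fold. The ratio of Jchain to Pou2af1 was 122 to 200. The ratio of Jchain to Cd79a ranged more widely, from 65.1 to 174. Jchain to Igkc, the constant gene of the kappa light chain, was 0.0956 to 0.222 in the water mice and 0.0776 to 0.126 in the 7 DSS mice. Jchain to Mzb1 was 2.86 in DSS control replicate 2, where Jchain was at 5.18 TPM and Mzb1 at 1.81 TPM. In the other DSS mice where Mzb1 reached 1 TPM it was 30.5 to 47.3, and over all 5 the range was 16.5-fold. No ratio was taken where Mzb1 was under 1 TPM. These were DSS control replicate 3 (Jchain 8.04 TPM, Mzb1 0.999 TPM) and labelled knockout replicate 1 (Jchain 10.97 TPM, Mzb1 0.534 TPM). Control replicate 2 is therefore not shown to be the only DSS mouse outside the water range. Jchain to Pou2af1 was 39.2 and 76.7 in the 2 DSS mice where Pou2af1 reached 1 TPM, and Jchain to Cd79a was 144 in the 1 DSS mouse where Cd79a did. A cut on the lower gene keeps mice in which that gene is high, which favours low ratios. These values therefore do not describe the other DSS mice, such as control replicate 1 (Jchain 66.4 TPM, Pou2af1 0.414 TPM).

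The mice of cages a and b also differ in sex, cage a holding 4 males and cage b 5 females, each too few for a correlation of its own. With the cage means subtracted, the r of Jchain with Mzb1, Pou2af1, Cd79a and Cd79b stayed above 0.9, and the median over the 36 pairs was 0.59. In the 7 DSS mice the median r over the 36 pairs was 0.01, and it was 0.74 over the 10 pairs of the 5 genes (-0.22 to 0.95). Among those, the pairs of Cd79b lay between -0.22 and 0.01. DSS labelled knockout replicate 3 was the highest DSS mouse for Jchain, Mzb1, Pou2af1 and Cd79a, and how far it carried their r was not tested. Most of the members were near the pseudocount after DSS.

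The genes outside the 9 and outside the immunoglobulins whose levels were nearest to the mean of the members over the 9 water mice were found among 10848 genes. The nearest was Tnfrsf13b (TACI, a receptor for the survival factors BAFF and APRIL, r = 0.993), followed by Ikzf3 (Aiolos, a lymphoid transcription factor), Serpina3g, Cd69 (an activation and tissue-retention marker of lymphocytes), Tent5c (which stabilises immunoglobulin mRNA), Edem2 (of endoplasmic reticulum degradation), Plcg2 (of B cell receptor signalling), Gpr55, Lax1 and Hvcn1 (a proton channel of B cells), the last at r = 0.98. Tnfrsf13b was at 1.99 to 23.6 TPM in the water mice and at 0 to 0.562 TPM in the DSS mice. In all, 78 of the 10848 genes had an r above 0.9 with the member mean. The order is a ranking by r and carries no test.

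Each member had a nearest gene of its own. For Jchain and Mzb1 it was Cd69 (r = 0.996 and 0.991), for Pou2af1 it was Ly6c2 (r = 0.991), for Cd79a it was Plcg2 (r = 0.983) and for Cd79b it was Slc35c2 (r = 0.991). For Irf4 it was Eif4ebp3 (r = 0.959), for Prdm1 H2-T23 (r = 0.932) and for Derl3 Lrrc8c (r = 0.961). For Ms4a1 it was Fcmr, the IgM Fc receptor of B cells (r = 0.936). Fcmr was at 12.8 TPM in water control replicate 1 and 4.50 TPM in labelled knockout replicate 2, the same mice in which Ms4a1 was highest, and at or below 1.55 TPM in the other 7 water mice. Cd69 was at 6.55 to 69.0 TPM in the water mice and at 0 to 4.27 TPM in the DSS mice. Slc35c2 was at 0 TPM in its lowest water mouse, with a median of 13.95 TPM there, and at 5.95 to 14.8 TPM in the DSS mice. Eif4ebp3 spanned only 65.7 to 86.1 TPM in the water mice. How far single mice carried these nearest r was not tested.

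Immunoglobulin genes themselves varied in how closely they followed Jchain. Over 190 such genes the median r with Jchain in the water mice was 0.49 (-0.51 to 0.99), against a median of -0.01 over 10848 other genes.

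Marker lists of other cell types were set beside Jchain in the same 9 mice, as the mean log2(TPM + 1) of each list. The list of 14 other plasma cell genes followed Jchain (r = 0.978, exact permutation p = 5.51e-06, adjusted over 8 lists 4.41e-05, n = 9; rho = 0.983, exact permutation p = 4.96e-05, adjusted 0.000397; r = 0.968 without the 2 farthest mice). Of those 14 genes, 8 also averaged 1 TPM or more in the DSS mice. Jchain was followed too by the 12 immunoglobulin constant genes (r = 0.965, exact permutation p = 2.48e-05, adjusted 9.92e-05, n = 9; rho = 0.967, exact permutation p = 0.000165, adjusted 0.000661; r = 0.925 without the 2 farthest mice). For the 23 other B cell genes r was 0.567 (exact permutation p = 0.119, adjusted 0.159, n = 9) and rho was 0.867 (exact permutation p = 0.00451, adjusted 0.00902), with r = 0.364 without the 2 farthest mice. Water control replicate 1 carried the highest B cell mean, and without it r was 0.841 (exact permutation p = 0.00623, unadjusted).

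The myeloid list had an r near 0 with Jchain. Its r was 0.01 (exact permutation p = 0.98, adjusted 0.98, n = 9) and its rho was 0.03 (exact permutation p = 0.948, adjusted 0.948), with r = -0.06 without the 2 farthest mice, although Lyz2 alone was at 468 to 1060 TPM in these mice. The T cell list gave r = 0.721 (exact permutation p = 0.0206, adjusted 0.0333, n = 9) and rho = 0.783 (exact permutation p = 0.0172, adjusted 0.0276), with r = 0.649 without the 2 farthest mice, and the 4 leukocyte genes gave r = 0.734 (exact permutation p = 0.0208, adjusted 0.0333, n = 9) and rho = 0.867 (exact permutation p = 0.00451, adjusted 0.00902), with r = 0.663. With the cage means subtracted neither passed (r = 0.70 and 0.72), and with a pseudocount of 0.1 the T cell r was 0.41. Leaving out any 1 of control replicates 3 and 4 and labelled knockout replicates 3, 4 and 5 also ended both calls, with r of at least 0.668 for T cells and 0.636 for leukocytes.

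The epithelial list ran the other way (r = -0.733, exact permutation p = 0.018, adjusted 0.0333, n = 9; rho = -0.75, exact permutation p = 0.0255, adjusted 0.034; r = -0.735 without the 2 farthest mice). The listed TPM of a water mouse did not add up to one fixed total (487469 to 861109). With each mouse rescaled to its transcripts outside immunoglobulins the epithelial r was -0.57 (exact permutation p = 0.107, unadjusted). The call was also lost with the cage means subtracted, on TPM without a log, and when any 1 of control replicates 3 and 4 and labelled knockout replicates 2, 4 and 5 was left out, with r weakest, at -0.53, without control replicate 3. The stromal list gave r = -0.514 (exact permutation p = 0.156, adjusted 0.178, n = 9) and rho = -0.35 (exact permutation p = 0.359, adjusted 0.41), with r = 0.07 without the 2 farthest mice.

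**Figure D4:**
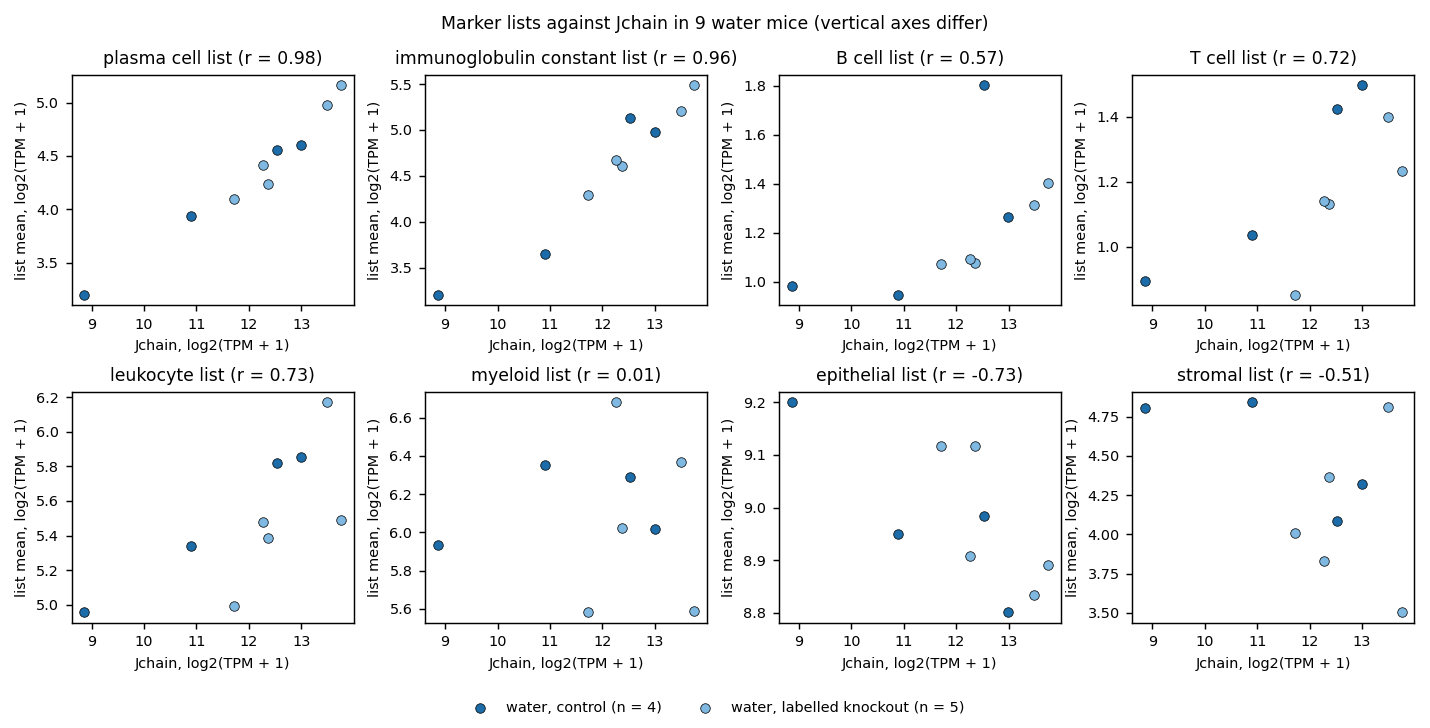
Mean log2(TPM + 1) of each of 8 marker lists (vertical axis) against Jchain in log2(TPM + 1) (horizontal axis) in the 9 water mice, with genotype by shade. The plasma cell and immunoglobulin constant lists rise with Jchain (r = 0.978 and 0.965), while the points of the myeloid list show no slope (r = 0.01).

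Levels in water and DSS mice were set side by side without a test, because the tables were scaled apart. Jchain had a mean of 12.10 ± 1.49 (SD, n = 9) on log2(TPM + 1) in the water mice and 5.15 ± 2.16 (SD, n = 7) in the DSS mice, a difference of 6.95. The difference was 5.21 for Mzb1, 4.19 for Cd79a, 3.96 for Pou2af1, 3.17 for Cd79b and 2.54 for Irf4. It was 1.05 for Prdm1, 0.73 for Ms4a1 and 0.13 for Derl3, where the pseudocount compresses the low values. In bulk RNA, fewer cells of a type and less RNA per cell cannot be told apart.

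Of the 9 members, 2 (Jchain and Cd79a) were higher in every water mouse than in every DSS mouse. Of 11247 genes averaging 1 TPM or more over the 16 mice, 4.16% were, and 8 of the 9 members were among those genes. Of 18010 genes above 0 TPM in any mouse, 2.89% were. The count of 2 rested on single mice. Without water control replicate 3 it was 5 (Jchain, Mzb1, Pou2af1, Cd79a and Cd79b), without DSS labelled knockout replicate 3 it was 4 (Jchain, Mzb1, Pou2af1 and Cd79a), and without water labelled knockout replicate 3 it was 3, with Irf4 added. Without both control replicate 3 of the water mice and labelled knockout replicate 3 of the DSS mice it was 5 of 9, against 5.34% of all genes. With the 5 female water mice alone, compared with the 7 DSS mice, which are all female, it was also 5, the same genes as without control replicate 3, which is male, against 6.54% of all genes. Leaving out both extreme mice and taking the females alone were chosen after the values were seen, so both counts are descriptions. For the other genes the mice left out were not chosen by the levels of those genes.

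The median difference of all genes was -0.32 as deposited. After one rescaling of all 16 mice by median-of-ratios factors that median was -0.01, 7.04% of genes were higher in every water mouse, and the members so placed were 2 as before. Every member kept a positive difference under both rescalings, with Jchain at 7.29 and 7.27.

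Other cell types moved with the members between the treatments. All 4 leukocyte genes were higher in every water mouse, as were 10 of 12 myeloid genes, among them C1qa at 192 to 422 TPM in the water mice and 0.761 to 11.7 TPM in the DSS mice. Of the 14 T cell genes 4 were (Cd4, Trac, Cd2 and Cd28), with Cd2 at 4.09 to 24.7 TPM in the water mice and 0 to 0.694 TPM in the DSS mice. These 4 also had the highest means of that list in the water mice. The others overlapped, among them Cd3d, with a median of 0.751 TPM in the water mice and 0.747 TPM in the DSS mice. The medians were 0.345 and 0 TPM for Cd3e and 0.575 and 0 TPM for Cd3g. The summed level of the T cell list was 15.95 to 57.6 TPM in the water mice and 0.347 to 5.34 TPM in the DSS mice, and that of the myeloid list 1256 to 2829 TPM and 81.6 to 161 TPM. Among the 14 plasma cell genes 3 were higher in every water mouse (Tnfrsf17, Tnfrsf13b and Ccr10) and 1 was lower (Cd38). The most abundant of that list overlapped between the treatments: Xbp1, a transcription factor of secretory cells, was at 94.2 to 427 TPM in the water mice and 112 to 147 TPM in the DSS mice. Of 23 B cell genes 5 were higher in every water mouse, and of 12 immunoglobulin constant genes 3 were. The epithelial list had 3 of 10 genes lower in every water mouse (Epcam, Cdh1 and Tspan8) and the stromal list had 0 of 9 apart in either direction. The part of these other cells in the members' difference was not tested.

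Genotype was compared within each treatment, the comparison for which the mice were bred. In the water mice 8 members were tested and 0 were called by limma at an adjusted p under 0.05, nor did any pass an unadjusted p of 0.05. Over all 11046 genes 1 was called, or 0.00905%. The difference, labelled knockout minus control on log2(TPM + 1), was 1.40 for Jchain (SE 0.82, adjusted p = 0.865 by limma) and 1.43 for Mzb1 (SE 0.85, adjusted p = 0.865 by limma). It was between 0.96 and 1.27 for Pou2af1, Cd79a, Cd79b and Prdm1, -0.10 for Irf4 and -0.46 for Ms4a1. The median of the 8 was 1.11, beside 0.00 over all genes.

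Control replicate 3, the mouse with 1.62% of its TPM in immunoglobulin genes, carried much of this difference. Without it the median of the 8 members was 0.51 and Jchain was at 0.58. Without control replicate 4 the median was 1.73, and 4 members passed an unadjusted p of 0.05 but none an adjusted one. By exact two-sided permutation, for which the smallest p that 4 against 5 mice allow is 0.00794, Jchain in TPM gave p = 0.238, with means of 4108 ± 3548 TPM (SD, n = 4) in the controls and 7780 ± 4581 TPM (SD, n = 5) in the mice labelled knockout. None of the 9 members separated the genotypes without overlap.

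The other lists likewise held no called gene in the water mice. All 12 plasma cell genes tested had a positive difference, with a median of 0.60, while 5 of 15 B cell genes did, with a median of -0.13. Over all genes 50.2% had one. The plasma cell list mean followed Jchain in these mice (r = 0.978), so its genes are not independent. Its lowest mean, 3.20, was in control replicate 3, and the lists are given with all mice only. The immunoglobulin constant list had a median of 0.64 over 8 genes, the T cell list 0.15 over 6, the leukocyte list 0.03 over 4 and the myeloid list -0.13 over 12. The epithelial list had -0.02 over 10 and the stromal list -0.57 over 9.

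After DSS 4 members reached a mean of 1 TPM and were tested, and 0 were called or passed an unadjusted p of 0.05. Over all 10899 genes 1 was called, or 0.00918%. The difference was 2.08 for Jchain (SE 1.26, adjusted p = 1.00 by limma), 0.95 for Pou2af1, 0.58 for Mzb1 and 0.31 for Cd79a. Without labelled knockout replicate 3 only Jchain and Mzb1 reached 1 TPM, with differences of 1.17 and -0.13. Leaving out control replicate 1 raised the Jchain difference to 3.14 (unadjusted p = 0.0409, adjusted p = 0.905 by limma), and leaving out labelled knockout replicate 1 raised it to 2.90 (unadjusted p = 0.039, adjusted p = 0.996 by limma). The exact two-sided permutation p of Jchain in TPM was 0.486, with means of 26.5 ± 34.5 TPM (SD, n = 3) and 143 ± 200 TPM (SD, n = 4), and the smallest p that 3 against 4 mice allow is 0.0286. The lists had no called gene in DSS mice either. Their medians were 1.96 for 3 immunoglobulin constant genes, 0.20 for 3 B cell genes, 0.13 for 8 plasma cell genes, -0.17 for 10 myeloid genes, -0.52 for 4 leukocyte genes, -0.05 for 10 epithelial genes and 0.14 for 7 stromal genes, and no T cell gene was tested.

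**Figure D5:**
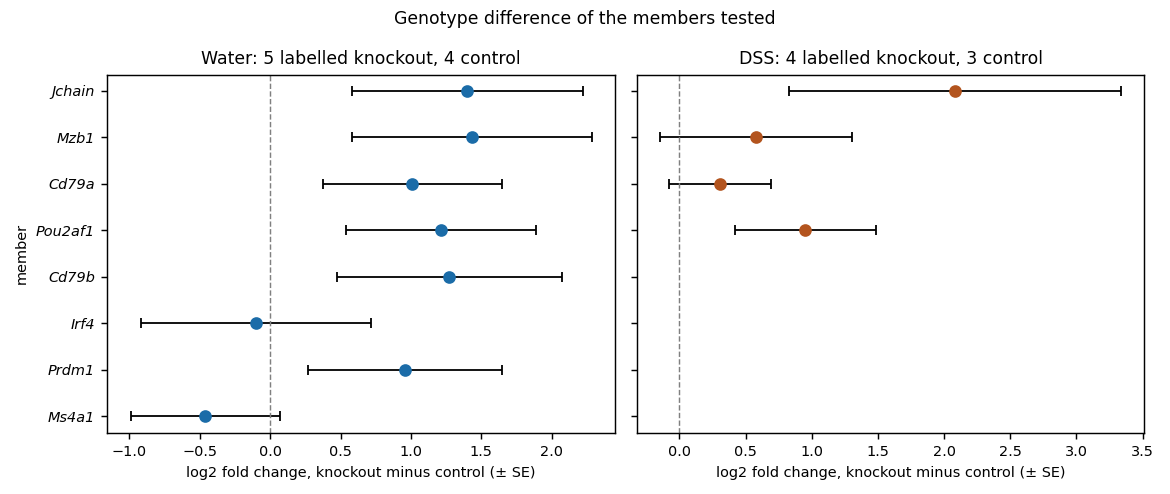
Log2 fold change of labelled knockout minus control with its SE, from limma on log2(TPM + 1), for the 8 members tested in water mice (left) and the 4 tested in DSS mice (right). In the water mice 6 of the 8 points lie above 0, beside 50.2% of all genes tested. The highest is 1.43 ± 0.85 for Mzb1, and none passed an adjusted p of 0.05.

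Cage and sex are one split in the water mice. With genotype in the fit, 8 members were tested and 0 were called, against 4 of 11046 genes or 0.0362%, and none passed an unadjusted p of 0.05. The difference of cage b minus cage a was largest for Ms4a1 (-0.87, SE 0.48, adjusted p = 0.771 by limma) and was 0.55 for Jchain (SE 0.85, adjusted p = 0.91 by limma). No gene of the other lists was called between the cages. All 12 myeloid genes tested had a positive difference, with a median of 0.44, beside 50.3% of all genes.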

How the data were processed

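EpCAM+ cells were sorted from digested distal colonic mucosa, in DSS mice from its injured regions. Stranded polyA libraries were sequenced as single reads by the authors. Reads were quantified with kallisto and genotypes tested with sleuth, which the submitters' processing notes name with mm10; the transcript release is not given in the sources used here. The authors deposited 1 table per treatment with TPM per transcript and mouse. Only APPRIS principal isoforms are listed, and the tables were scaled apart. The authors' columns of fold changes, p-values and q-values were not used. The library depth is unknown from TPM, so precision was taken from the spread between mice, which the labels give as separate animals.

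Each table had 29373 lines, of which 385 repeated a transcript and were dropped, leaving 28988. TPM was summed per gene symbol. The genotype test was limma 3.58.1 (R 4.3.3), run separately for water and DSS on log2(TPM + 1) with trend, for every gene averaging 1 TPM or more. Its p-values were adjusted over all those genes by Benjamini-Hochberg. A fold change is on the log2(TPM + 1) scale and understates the change of low genes. Both scripts were tested on simulated data. Single values and correlations were tested by exact permutation of the mice, two-sided. Same-numbered mice are different animals; over genes, what set them off from their group correlated at 0.035 in water and -0.128 after DSS on average, so replicate numbers were not used as pairs. Alternatives were another pseudocount, filters, rescalings, cage, a replicate block and leaving out each mouse. Positions and transcript windows are from GENCODE M21 (GRCm38). Python 3.11.15, numpy 2.4.6, pandas 2.3.3, scipy 1.17.1 and matplotlib 3.10.9 were used.

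The 9 members and the marker lists were chosen with earlier results of these data known. Named genes were the members, Tnfrsf1b, Epcam, Ptprc and Pigr, up to 4 genes of each list with the highest level or any called gene, the 10 genes nearest to the member mean and the 1 nearest to each member. Ccr10, Tnfrsf17, Cd38, Cdh1, Tspan8, Cd3d, Cd3e and Cd3g were named after their values were seen.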

Additional observations from a re-analysis of the deposited data

Results flagged for a closer look

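A mouse was set apart where its gap to the nearest other mouse of its group, divided by the range of the group, passed Dixon's 95% critical value. The 30 groups of 4 or 5 mice tested came from the same animals and from genes several of which rise together, so they are not independent. TPM were taken without a log, and no chance rate is set beside the count. Of the 30, 8 were flagged. DSS labelled knockout replicate 3 accounted for 5 of them, lying above the other 3 mice of its group in Jchain (440.62 TPM), Mzb1 (14.446 TPM), Cd79a (3.0534 TPM), Irf4 (1.0736 TPM) and the summed level of the 9 members (465.33 TPM). Jchain made up 94.7% of that summed level, so the flags of Jchain and of the sum are nearly the same observation. Immunoglobulin genes took 2.26% of the TPM of this mouse, the highest share after DSS. Its Ptprc level was 4.88 TPM, also the highest after DSS, beside 4.68 TPM in labelled knockout replicate 2. The mean log2(TPM + 1) of the leukocyte list was 2.20 in this mouse and was highest, at 2.41, in DSS control replicate 1. Prdm1 stood apart in water control replicate 4 (9.1404 TPM) and in water labelled knockout replicate 4 (8.5959 TPM), which share a cage and a number. Cd79b stood apart in DSS labelled knockout replicate 2 (0.86516 TPM), the only mouse of its group in which it was not listed at 0.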

How the results depend on the processing

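The number of members called stayed at 0 for genotype in water, genotype after DSS and cage under every alternative run. Calls over all genes moved. For genotype in the water mice the main count of 1 became 0 with a pseudocount of 0.1, 4 without a filter, 0 with a mean of at least 5 TPM and 0 with the replicate block, and lay between 1 and 2 with each mouse left out. After DSS it became 0 with a pseudocount of 0.1, 0 without a filter and 0 with the replicate block, and lay between 0 and 3 with each mouse left out. Between cages 3 to 7 genes were called with each mouse left out. The cause was not tested.

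With the replicate block the Jchain difference was 1.51 in the water mice and 2.22 after DSS, and it changed no call of a member; same-numbered mice share only a number. The number of members higher in every water mouse lay between 2 and 5 with each mouse left out, and was 5 without both water control replicate 3 and DSS labelled knockout replicate 3 and 5 with the female water mice alone, both chosen after seeing the data. The median r of the 36 pairs was 0.57 to 0.70 over the mice left out and 0.66 without Derl3, also chosen after seeing the data.

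Signs changed for values not called. The cage difference of Cd79a became 0.011 with no covariate and lay between -0.66 and 0.37 with each mouse left out, that of Jchain between -0.23 and 1.14, of Mzb1 between -0.094 and 1.37 and of Cd79b between -0.11 and 1.37. The genotype difference of Irf4 in water lay between -0.52 and 0.57, of Ms4a1 between -0.75 and 0.017, and of Mzb1 after DSS between -0.13 and 0.98. The r of Jchain with the myeloid list was -0.11 on TPM and -0.19 with cage means subtracted, and -0.21 to 0.29 with each mouse left out. Depth is unknown, and with 3 to 5 mice a group the SE of the Jchain difference was 0.82 in water and 1.26 after DSS.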
